A study of Arabidopsis thaliana with 8 samples.

Results

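The genes described here are those that the authors' deposited table annotates with the plain Gene Ontology term defense response, without the responses to chitin and to wounding and without transcription factors. Of 28775 genes listed, 420 carried the exact term. The exclusions removed 5 genes for chitin, 18 for wounding and 7 for transcription factor activity, and 390 remained. Of these, 329 had reads in both treatments and are the members described below. The other 61 had too few reads for a ratio: 47 had none, 4 had reads only after dexamethasone and 10 only after mock treatment, with at most 5 reads each.

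Plants detect microbes both outside and inside the cell. Receptor kinases and receptor-like proteins at the cell surface bind microbial molecules, and intracellular receptors with a nucleotide-binding (NB-ARC) domain and leucine-rich repeats (LRR) detect effector proteins delivered into the cell. The intracellular receptors carry either a Toll/interleukin-1 receptor (TIR) domain or, in most other cases, a coiled coil (CC) at the amino terminus, and TIR-type receptors signal through EDS1 to helper receptors. Responses include salicylic acid, reactive oxygen, antimicrobial peptides and compounds such as camalexin. In flowers, many cysteine-rich peptides and some MLO proteins also act in reproduction.

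Messenger RNA was sequenced from mixed-stage floral buds of Arabidopsis thaliana, strain L er, that carried the transgene 35S:GR-RBE. RBE, or RABBIT EARS, is a zinc-finger transcription factor needed for petal development, and the study sought genes downstream of it. The 35S promoter is constitutive, and the GR part, from the glucocorticoid receptor, keeps the fusion protein out of the nucleus until dexamethasone is added. Buds received 10 µM dexamethasone with 0.1% ethanol and 0.015% silwet (DEX), or ethanol and silwet alone (mock), for 4 h. Both groups carried the transgene, so an effect of dexamethasone itself and an effect of the activated fusion cannot be told apart. The 4 libraries of a treatment came from 2 biological replicates, each sequenced as 2 technical replicates.

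The deposited table gives 1 value per gene and treatment, over all libraries together, so no difference below has a replicate check. Reads per pool were recovered from a deposited score by a formula that no source used here states, and totalled 102144668 in DEX and 119057272 in mock. Each ± is a standard error on the log2 scale from the counting of reads alone. A gene was called higher or lower where the posterior probability of the opposite direction, in the authors' deposited table, was under 0.05. Counting error alone puts about 10% of unchanged genes past this limit. RBE itself, native gene and transgene together, had 21774 reads in DEX against 28895 in mock, giving a log2 ratio of DEX over mock of -0.19 ± 0.01. Markers of floral tissues had reads in both pools: of 7 tapetum genes 5 were called higher and 1 lower (3 and 2 with ratios centred on the median gene), while of 7 carpel and ovule genes 2 were higher and 3 lower (2 and 4 when centred). Of all genes with 5000 to 20000 reads, where the median gene of both lists lies, 43.9% were called higher and 26% lower. In whole buds, fewer cells of a type and less RNA per cell cannot be told apart.

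Most members differed little between the pools, and as a whole they were not called more often than other genes. Of the 329 members, 93 were called higher in DEX (28.3%) and 53 lower (16.1%), while 183 were not called. Among all 24945 genes with reads in both pools, 36.4% were called higher and 20.8% lower, on the same limit of the authors' deposited table. With ratios centred on the median gene, which lowers every log2 ratio by 0.05, 70 members were called higher and 72 lower, against 25.4% and 29.5% of all genes. The median log2 ratio of the members was 0.07, beside 0.05 for all genes. Members had fewer reads, with a median of 618 against 3154. Among all genes, smaller shares were called at low depth. The part of depth in the shares of the members was not tested.

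Compared at like depth, the shares of members called were mostly close to or below those of all genes. Between 1000 and 5000 reads, 36.1% of 83 members were called higher and 22.9% lower, beside 41.7% and 20.8% of 6749 genes. Between 200 and 1000 reads, 25.8% of 66 members were higher and 13.6% lower, beside 36.0% and 16.6% of 3335 genes. At 20000 reads or more the 22 members had an SD of 0.31 in their log2 ratio, against 0.198 for all genes of that depth. In that bin 10 members were higher (45.5%) and 9 lower (40.9%), beside 43.2% and 40.1% of all genes, so these shares were near the background.

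Large differences were few and were shared out over several protein classes. Without a minimum of reads, 26 called members were higher by 1.5-fold or more (7.90%) and 10 lower (3.04%), beside 4.45% and 2.91% of all genes. Among the 209 members with 200 reads or more, 72 were called higher (34.4%) and 47 lower (22.5%), beside 41.8% and 24.5% of all genes of that depth. Of these 209, 10 were higher (4.78%) and 6 lower (2.87%) by 1.5-fold or more. Among all 19983 genes of that depth, these shares were 2.49% and 2.43%. The 10 higher members comprised 3 TIR genes without leucine-rich repeats, 1 TIR-NBS-LRR gene, 2 receptor-like protein genes, 2 enzyme genes, 1 MLO gene and 1 cysteine-rich peptide gene. The 6 lower ones comprised a dirigent-like gene, 3 genes with leucine-rich repeats, PAD3 and ECS1.

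**Figure D1:**
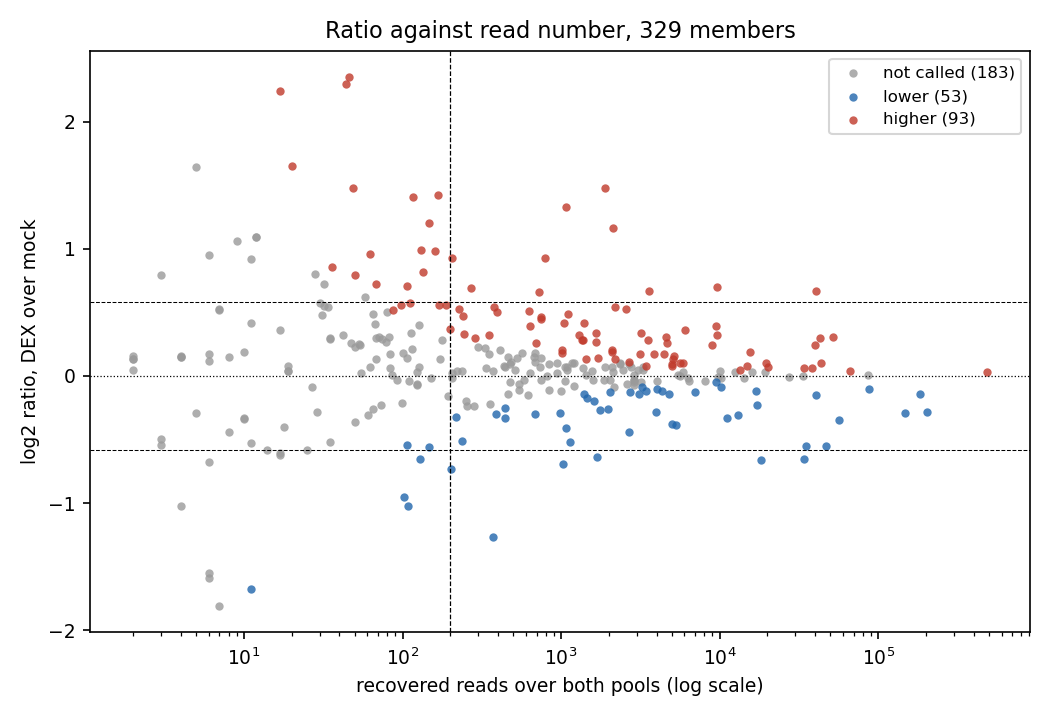
Log2 ratio of DEX over mock (vertical axis) against recovered reads over both pools (horizontal axis, log scale) for the 329 members, 1 point each, coloured by call. Dashed lines mark 200 reads and 1.5-fold in either direction; beyond 200 reads most points lie between the 1.5-fold lines, with 10 called members above and 6 below.

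Promoters of members at the ends of this range are shown because they hold the DNA next to the largest differences. Each sequence runs 5′ to 3′ on the gene's strand from 250 bases before to 50 bases after the start annotated by RefSeq in TAIR10.1, a Columbia genome, whereas the plants were L er. Capitals mark the core of the W-box, TTGAC or its complement GTCAA, to which WRKY transcription factors bind. The 3 highest come first: AT3G04210 at chr3:1108203-1108502 on the minus strand, AT1G72900 at chr1:27431928-27432227 on the plus strand and AT4G19520 at chr4:10647231-10647530 on the minus strand. From the low end follow AT1G22900 at chr1:8104556-8104855 on the minus strand and PAD3 at chr3:9887667-9887966 on the plus strand.
AT3G04210: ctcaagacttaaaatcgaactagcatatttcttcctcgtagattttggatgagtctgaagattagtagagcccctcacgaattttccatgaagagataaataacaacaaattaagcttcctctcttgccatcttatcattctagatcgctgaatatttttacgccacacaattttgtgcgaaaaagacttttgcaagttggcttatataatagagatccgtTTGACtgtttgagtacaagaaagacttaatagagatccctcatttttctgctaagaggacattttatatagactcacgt
AT1G72900: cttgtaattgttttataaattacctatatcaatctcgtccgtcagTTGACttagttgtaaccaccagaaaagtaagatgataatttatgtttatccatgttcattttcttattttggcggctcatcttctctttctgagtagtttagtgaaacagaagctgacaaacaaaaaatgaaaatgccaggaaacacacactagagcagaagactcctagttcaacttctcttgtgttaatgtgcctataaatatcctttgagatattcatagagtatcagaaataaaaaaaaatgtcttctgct
AT4G19520: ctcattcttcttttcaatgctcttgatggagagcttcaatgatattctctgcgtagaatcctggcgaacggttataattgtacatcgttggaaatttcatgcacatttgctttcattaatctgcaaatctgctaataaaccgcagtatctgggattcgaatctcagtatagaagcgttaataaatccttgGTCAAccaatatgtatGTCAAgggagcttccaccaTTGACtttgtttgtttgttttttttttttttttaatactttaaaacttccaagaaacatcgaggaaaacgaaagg
AT1G22900: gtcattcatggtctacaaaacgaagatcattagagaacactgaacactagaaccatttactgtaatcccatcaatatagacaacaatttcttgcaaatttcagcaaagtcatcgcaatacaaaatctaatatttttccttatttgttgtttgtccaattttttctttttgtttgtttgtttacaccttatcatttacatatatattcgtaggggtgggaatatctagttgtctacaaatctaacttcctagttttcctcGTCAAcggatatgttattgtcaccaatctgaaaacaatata
PAD3: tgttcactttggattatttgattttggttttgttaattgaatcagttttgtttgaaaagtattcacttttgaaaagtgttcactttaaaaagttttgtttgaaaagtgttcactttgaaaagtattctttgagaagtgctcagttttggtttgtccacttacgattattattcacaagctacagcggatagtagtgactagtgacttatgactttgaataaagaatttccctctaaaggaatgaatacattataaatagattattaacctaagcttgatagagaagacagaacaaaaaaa

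The windows of AT3G04210, AT1G72900 and AT1G22900 held 1 core each, that of AT4G19520 held 3, and that of PAD3 held 0. A W-box core, searched on both strands, was present in 62.6% of the 329 member windows and in 50.5% of the 24289 windows of all genes with reads in both pools. The share was 61.3% in members called higher, 52.8% in those called lower and 66.1% in those not called, so it was not ordered by the call. Members with a core had a median log2 ratio of 0.09 and those without had 0.06. At 1.5-fold or more with at least 200 reads, 7 of 10 higher members and 2 of 6 lower members held one. A match is a description of these letters, and members that are copies of each other may share it by descent.

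2 longer motifs were searched in the same windows, also on both strands. The hexamer CGCGTT was present in 6.99% of member windows and 3.53% of all windows, and in 13 of the 81 TIR-NBS-LRR windows (16.0%). The TIR-NBS-LRR genes with it had a median log2 ratio of 0.10 and those without had 0.08. The GCC-box core GCCGCC, bound by ethylene response factors, was present in 2.43% of member windows and 2.51% of all windows. Of its 8 member windows, 4 belonged to TIR genes without leucine-rich repeats, namely AT4G16930, TIR, AT1G72950 and AT1G72900, of which AT1G72950 and AT1G72900 were called higher and TIR lower.

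By protein class, TIR proteins without leucine-rich repeats had the highest median ratio of the classes with more than 5 members, and dirigent-like proteins the lowest. Classes were taken from product names and protein family notes of RefSeq. The medians of the 13 classes ran from -0.03 in 16 dirigent-like proteins to 0.24 in 27 TIR proteins without leucine-rich repeats and 0.33 in 5 receptor kinases. The last rests on few reads, with a median of 34 per gene, and the TIR class had a median of 170. Among all genes, the median log2 ratio was 0.17 below 50 reads and 0.17 at 50 to 200 reads. Class medians were thus compared at unlike depth. Within every class of more than 5 members some genes were called higher and some lower.

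**Figure D2:**
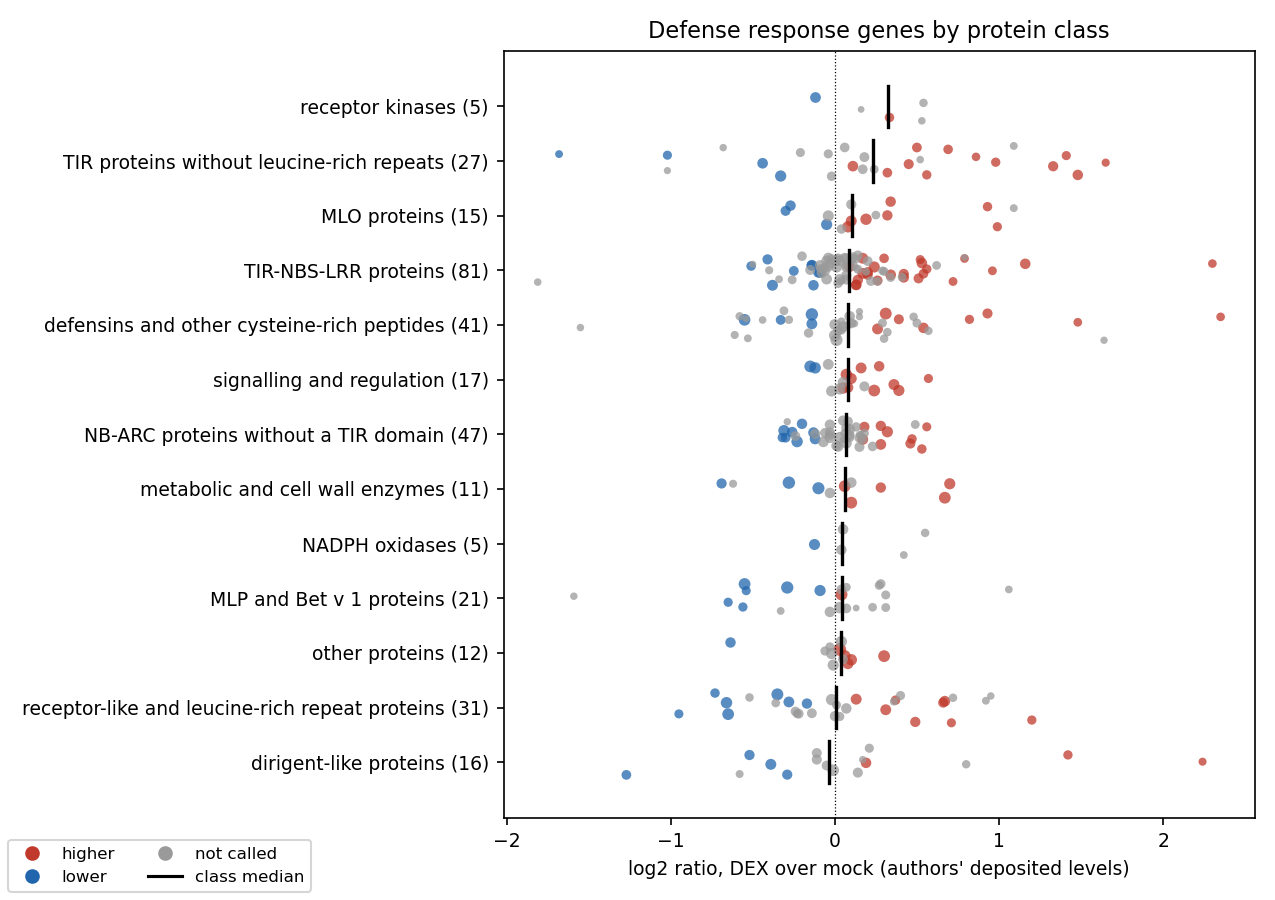
Log2 ratio of DEX over mock (horizontal axis) for each of the 329 members, grouped by protein class (vertical axis, number of members in brackets) and coloured by call, with larger points for more reads and a black bar at the class median. The medians lie between -0.03 and 0.33, and single genes spread from -1.81 to 2.35.

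TIR proteins without leucine-rich repeats, short relatives of the intracellular receptors, had more genes called higher than lower. Of 41 annotated, 27 had reads in both pools, and 12 of these were called higher (44.4%), 4 lower and 11 not, or 10 higher and 3 lower with ratios centred on the median gene. Among all genes these shares were 36.4% higher and 20.8% lower, or 25.4% and 29.5% when centred. Of all genes with 50 to 200 reads, where the class median lies, 22.6% were called higher and 10.2% lower. Among the higher genes, AT1G72870, AT1G72890, AT1G72900, AT1G72910, AT1G72940 and AT1G72950 lie in 1 cluster on chromosome 1, described below. Their calls thus come from 1 stretch of related neighbours, and AT1G72910 and AT1G72940 have near-identical copies. The middle 50% of the log2 ratios of the class lay between -0.12 and 0.77. Levels in the class were low, with a median of 0.461 RPKM in mock and 170 reads per gene over both pools. RPKM is RPM (reads per 1000000 reads of the pool) divided by the exonic length in kb. Of 11 genes whose product name gives a nucleotide-binding site (NBS) beside the TIR domain, 7 were higher and 0 lower, at a median of 0.32. Among 15 genes named for a TIR domain without NBS in the name, 5 were higher and 3 lower, at a median of 0.24. This split rests on names only, and some of the 15 may also carry a nucleotide-binding domain. The difference between these kinds was not tested.

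AT3G04210 (chromosome 3, 1105650 to 1108252 of TAIR10.1, minus strand) encodes a protein of the TIR-NBS kind and had the highest ratio of all members with at least 200 reads. It had 1334 reads in DEX against 559 in mock, or 13.1 and 4.70 RPM, a log2 ratio of 1.48 ± 0.07 and 2.78-fold higher in DEX. AT1G72900 (chromosome 1, 27432178 to 27433782, plus strand), a TIR domain gene, had 735 and 340 reads, a log2 ratio of 1.33 ± 0.09. Its promoter window, shown above, held both a W-box core and a GCC-box core. AT1G66090 had 158 reads in DEX against 114 in mock, giving a log2 ratio of 0.69 ± 0.18. In these 3 genes the DEX pool was the higher one by more than 3 counting errors.

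AT1G61100 and TIR were lower on many reads. AT1G61100 had 4522 reads in DEX against 6647 in mock, giving a log2 ratio of -0.33 ± 0.03. TIR (AT1G72930), a protein of little more than a TIR domain, had 1045 and 1656 reads, a log2 ratio of -0.44 ± 0.06. TIR shares 95.5% identity over 713 bases with its neighbour AT1G72910, so reads may have been split between them. PP2-A5, in which a TIR domain is joined to a phloem lectin, stood at -1.02 ± 0.30 on 32 and 77 reads. RLM3, needed for resistance to several necrotrophic fungi, was at 0.11 ± 0.06, and its call was lost at a posterior limit of 0.01 and with ratios centred on the median gene.

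TIR-NBS-LRR receptors were the largest class and, with a few exceptions, differed little. Of 81 with reads in both pools, 24 were called higher (29.6%), 9 lower (11.1%) and 48 not, at a median of 0.09. For all genes these shares were 36.4% and 20.8%. With ratios centred on the median gene the counts were 17 higher and 15 lower, so the surplus of higher calls depended on the scaling. AT4G19520 (chromosome 4, 10639269 to 10647280, minus strand) stood out with 1405 reads in DEX against 733 in mock, giving a log2 ratio of 1.16 ± 0.07 and 2.23-fold higher. Its neighbour AT4G19530 had 1413 and 1144 reads, at 0.53 ± 0.06. The former was the only gene of the class with at least 200 reads and 1.5-fold or more.

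A few receptors of this class are named for the pathogen they act against. WRR4, which confers resistance to white rust, had 89 reads in DEX against 147 in mock, giving a log2 ratio of -0.51 ± 0.19. RPS6, which recognises a Pseudomonas syringae effector, was at 0.24 ± 0.03, and RPS4, which acts against another such effector, was not called at -0.05 ± 0.05. RPP4, a downy mildew receptor, was at 0.26 ± 0.11 and RPP5 at 0.09 ± 0.04, and both have near-identical copies. The call of RPP5 was lost at a posterior limit of 0.01 and with ratios centred on the median gene. RLM1, which acts against the blackleg fungus, had 40 and 28 reads, at 0.72 ± 0.36, and its call was lost at a posterior limit of 0.01. RPP1 was not called at 0.03 ± 0.06. Except for WRR4, these were picked for their known role after their values were seen. AT1G31540 was at -0.41 ± 0.09 and AT5G40910 at -0.38 ± 0.04, the latter with 96.6% identity over 493 bases to AT5G40920.

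Several members lie side by side on the chromosomes. Counting members less than 20 kb apart, 22 clusters held 3 or more members with reads, 90 members in all, and this grouping was examined after the values were known. In 11 clusters some members were called higher and 0 lower, in 2 some were lower and 0 higher, in 5 both occurred and in 4 no member was called. These calls are without centring, where 36.4% of all genes were called higher and 20.8% lower. MLP28 and AT1G63730 were each the only member called in their cluster, and both calls were lost with ratios centred on the median gene. The tally was not repeated with centred ratios. The cluster with most members called lies on chromosome 1 from 27409196 to 27445997 and holds 10 TIR genes. Of these, 7 were called higher and TIR lower, with log2 ratios from -0.44 to 1.33 and a median of 0.39. Within it AT1G72900 and AT1G72910 lay at 1.33 and 0.98, and TIR, next in order among the members, at -0.44.

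Other TIR clusters held fewer called members. The cluster on chromosome 4 from 9488466 to 9565569, which holds RPP4, SNC1, RPP5 and RLM3, had 9 members with 4 called higher, 0 lower and a median of 0.09. On the same chromosome, from 10625562 to 10657282, AT4G19500 and AT4G19510 were at 0.07 and -0.08 while AT4G19520 and AT4G19530 were at 1.16 and 0.53. On chromosome 5, from 18114461 to 18140190, LAZ5 was at 0.01 and AT5G44910 at 1.41 ± 0.29 on 81 and 35 reads. In the last 2 stretches genes near 0 thus lay beside genes over 2-fold higher. Many clustered genes share sequence, and how reads that match several copies were assigned is not given in the sources used here.

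**Figure D3:**
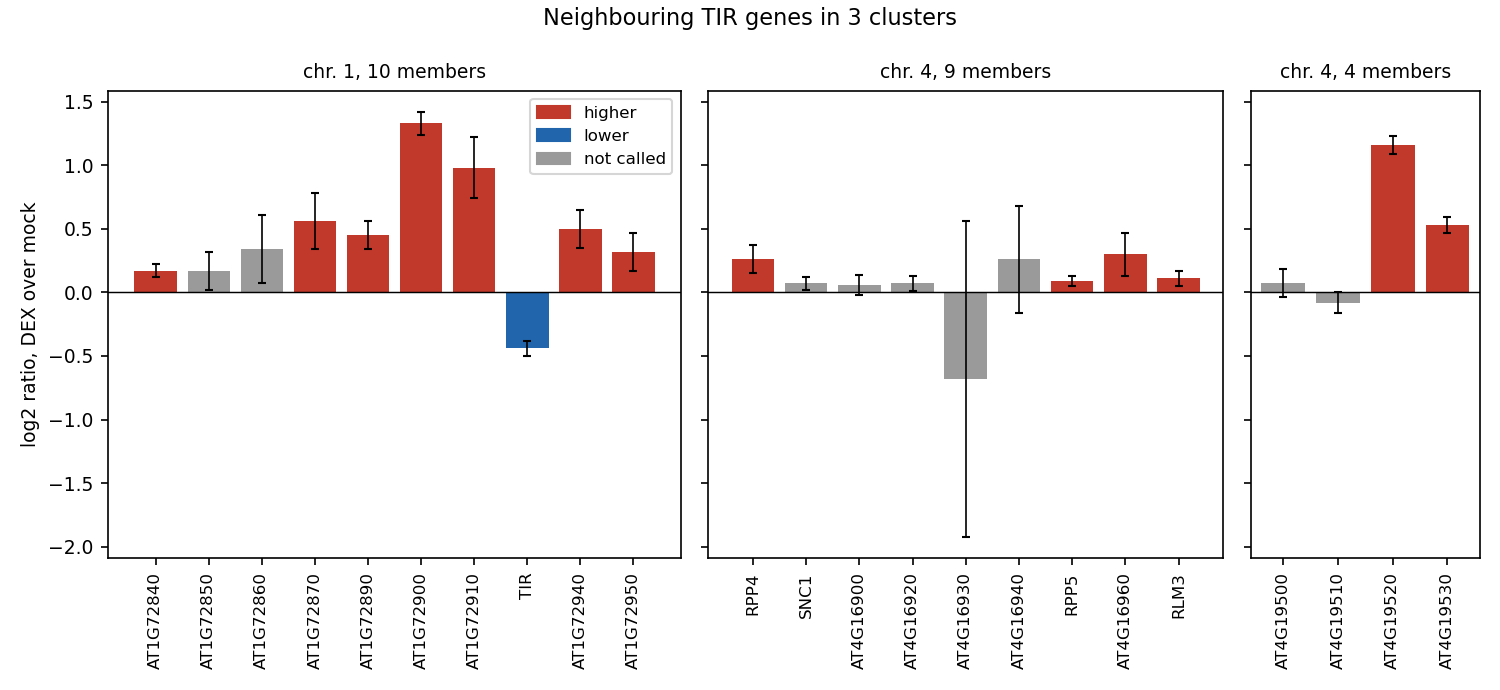
Log2 ratio of DEX over mock (vertical axis) for the members of 3 clusters of TIR genes, 1 bar per gene in chromosomal order, coloured by call, with error bars of 1 counting standard error. In the chromosome 1 cluster (left) 7 of 10 bars are called higher and TIR is lower, in the middle cluster ratios are small where reads are many, and on the right AT4G19520 and AT4G19530 stand above their neighbours.

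NB-ARC receptors without a TIR domain, among them the coiled-coil type, stayed close to even. Of 47 measured, 9 were called higher (19.1%) and 8 lower (17.0%), beside 36.4% and 20.8% of all genes. Their median was 0.07, and with ratios centred on the median gene 8 were higher and 11 lower. None reached 1.5-fold, and the ratios ran from -0.32 to 0.56. ADR1 and its relatives are helper receptors that act downstream of other receptors, and they were split. ADR1-L2 had 4988 reads in DEX against 4649 in mock, at 0.32 ± 0.03, and ADR1 was at 0.28 ± 0.08. ADR1-L1 had 5329 and 7682 reads, at -0.31 ± 0.03, and overlaps genes on the other strand.

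ZAR1 and RPM1, well-known receptors of this class, were slightly lower. ZAR1, which assembles into a pentameric membrane channel on activation, had 7326 reads in DEX against 9986 in mock, giving a log2 ratio of -0.23 ± 0.02, and also overlaps genes on the other strand. RPM1, which guards the protein RIN4, was at -0.20 ± 0.07 and was picked for its known role. AT5G47250 was at 0.28 ± 0.05. The strand setting of the libraries is not given in the sources used here, so reads of overlapping genes may have been counted together or left out.

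Receptor-like proteins and other proteins with leucine-rich repeats lay on both sides of 0. Of 31 measured, 8 were called higher (25.8%) and 7 lower (22.6%), beside 36.4% and 20.8% of all genes. Their median was 0.01. Among 23 receptor-like proteins, which resemble receptor kinases without a kinase domain, 7 were higher and 3 lower. Among 8 polygalacturonase inhibitors and related proteins with leucine-rich repeats, 1 was higher and 4 lower, at a median of -0.26. The difference between these kinds was not tested.

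RLP32, which recognises a bacterial translation initiation factor, had 2072 reads in DEX against 1522 in mock, giving a log2 ratio of 0.67 ± 0.05, and overlaps a gene on the other strand. RLP35 had 416 and 308 reads, at 0.66 ± 0.11, and RLP54 was at 0.31 ± 0.04. RLP19 had 69 and 134 reads, at -0.73 ± 0.21. The receptor-like proteins named by the rule were thus up to 1.59-fold higher and 1.66-fold lower in DEX. Both were exceeded by receptor-like proteins with fewer reads, picked after their values were seen. RLP34 was 2.30-fold higher on 98 and 49 reads, with a gene on its other strand, and RLP11 was 1.93-fold lower on 31 and 71 reads.

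PGIP2 encodes an inhibitor of fungal polygalacturonases, enzymes that digest pectin. It had 6397 reads in DEX against 11765 in mock, or 62.6 and 98.8 RPM, a log2 ratio of -0.66 ± 0.02. AT1G33590, another gene with leucine-rich repeats, had 12037 and 22039 reads, at -0.65 ± 0.02. Both were lower in DEX by over 1.5-fold on many reads, where counting error is small. AT3G20820 was lower as well, at -0.35 ± 0.01, and AT5G23400 was at -0.28 ± 0.05.

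Receptor kinases in the set were few. SNC4, whose gain-of-function mutant has active defence, was at -0.12 ± 0.05 and shares 96.2% identity with AT1G66990. WAKL10, of the wall-associated kinase-like family, was at 0.33 ± 0.18. Both calls were lost at a posterior limit of 0.01, and that of WAKL10 also with ratios centred on the median gene. The 3 cysteine-rich receptor-like kinases CRK4, CRK20 and CRK23 had 34 reads or fewer each over both pools and were not called.

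MLO proteins, membrane proteins with 7 transmembrane segments of which some are needed for powdery mildew infection, were all detected. Of 15 members, 7 were called higher (46.7%), 3 lower (20%) and 5 not, at a median of 0.10. With ratios centred on the median gene, 5 were higher and 4 lower. The class had a median of 1290 reads per gene. Of all genes with 1000 to 5000 reads, 41.7% were called higher and 20.8% lower, so its shares were near the background. The 3 genes that together allow powdery mildew to infect Arabidopsis were split. MLO6 had 868 reads in DEX against 797 in mock, at 0.34 ± 0.07, MLO2 was at 0.08 ± 0.02, a call lost with ratios centred on the median gene, and MLO12 had 728 and 1026 reads, at -0.27 ± 0.07. All 3 overlap genes on the other strand.

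MLO5 and MLO9, which act in pollen tubes, were both higher in DEX. MLO9 had 127 reads in DEX against 78 in mock, giving a log2 ratio of 0.93 ± 0.21, and MLO5 had 666 and 624 reads, at 0.32 ± 0.08. MLO8 was at 0.19 ± 0.02 on 7696 and 7872 reads, and MLO10 at -0.30 ± 0.11. Of 6 markers of late pollen, 5 were called higher and PPME1 lower, beside 43.9% and 26% of all genes with 5000 to 20000 reads. The markers had a median of 0.32, and their summed level was 1329 RPM in DEX and 1055 in mock. Their part in the result was not tested.

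Defensins and other cysteine-rich peptides, small secreted proteins that include antimicrobial peptides and pollen or pistil signals, had few reads, with a median of 74 per gene. Of 41 measured, 8 were higher (19.5%), 4 lower (9.76%) and 29 not called, at a median of 0.08. Among all genes with 50 to 200 reads, 22.6% were called higher and 10.2% lower, so the shares of the class were near those of genes of like depth. Levels ran from 0.0314 to 1154 RPKM in mock. LCR15, a low-molecular-weight cysteine-rich peptide, had 489 reads in DEX against 300 in mock, giving a log2 ratio of 0.93 ± 0.11. Of the 6 late pollen markers described above, 5 were called higher and PPME1 lower, and their part in these values was not tested.

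The peptide genes with most reads had smaller ratios. LCR69 had 80695 reads in DEX against 103488 in mock, at -0.14 ± 0.0068. AT2G43550, of the knottin type, had 26818 and 25180 reads, at 0.31 ± 0.01. LCR68 had 12934 and 22122 reads, at -0.55 ± 0.02. LCR69, LCR68 and LCR72 lie in 1 cluster on chromosome 2, and LCR72, at 0.54 ± 0.06, was higher while LCR69 and LCR68 were lower.

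Proteins of the MLP and Bet v 1 family, named after the major latex proteins and a birch pollen allergen, had more genes called lower than higher. Of 21 measured, 6 were called lower (28.6%) and 1 higher (4.76%), beside 20.8% lower and 36.4% higher of all genes. The median was 0.04 over all 21. With ratios centred on the median gene, 6 were lower and 0 higher, against 29.5% and 25.4% of all genes. The class had a median of 128 reads per gene. Of all genes with 50 to 200 reads, 10.2% were called lower and 22.6% higher. MLP168 had 17302 reads in DEX against 29458 in mock, giving a log2 ratio of -0.55 ± 0.01. MLP423 had 60493 and 86264 reads, at -0.29 ± 0.0077. The only higher gene, MLP28, was at 0.04 ± 0.01 and changed sign to -0.01 with ratios centred on the median gene.

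Dirigent-like proteins, which guide the coupling of phenoxy radicals in lignan and lignin formation, had 3 of 16 genes higher (18.8%) and 4 lower (25%). For all genes these shares were 36.4% and 20.8%. AT1G22900 (chromosome 1, 8103612 to 8104605, minus strand) had the lowest ratio of members with at least 200 reads, with 98 reads in DEX against 273 in mock, giving a log2 ratio of -1.27 ± 0.17 and 2.40-fold lower. DIR6 had 2108 and 3228 reads, at -0.39 ± 0.04, and AT3G13662 had 425 and 713 reads, at -0.52 ± 0.09. AT5G42500 went the other way with 116 and 51 reads, at 1.42 ± 0.24. AT4G11210 had only 14 and 3 reads, at 2.24 ± 0.88, so its size is poorly known.

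CYP79B2 and PAD3, both enzymes of the camalexin pathway, had ratios of opposite sign. CYP79B2 converts tryptophan to indole-3-acetaldoxime, the precursor of camalexin and of indole glucosinolates, and had 5597 reads in DEX against 4017 in mock, giving a log2 ratio of 0.70 ± 0.03. PAD3, the enzyme of the last step to camalexin, had 356 and 673 reads, at -0.69 ± 0.09. CYP71A13, an intermediate enzyme of the same route that is not a member, had 69 and 242 reads, at -1.60 ± 0.20. CYP71A13 was singled out after its value was seen, and the other enzymes of the route were not examined.

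Among the other enzymes, SOT12, a sulfotransferase that acts on salicylic acid and flavonoids, had 23536 reads in DEX against 17233 in mock, giving a log2 ratio of 0.67 ± 0.01. The glutathione transferase gene GSTF9 had 84390 and 119792 reads, at -0.28 ± 0.0065. CEV1, a cellulose synthase subunit whose loss activates jasmonate responses, was at -0.10 ± 0.0098 and overlaps a gene on the other strand. Of the 11 enzymes, 5 were called higher (45.5%) and 3 lower (27.3%), at a median of 0.06, or 0.01 with ratios centred on the median gene. Their median was 9614 reads per gene, and 43.9% of all genes with 5000 to 20000 reads were called higher and 26.0% lower. Markers of photosynthetic tissue were called lower in 5 of 6 cases, beside 40.1% of all genes with 20000 reads or more. These markers had a median of -0.25 and a summed level of 8913 RPM in DEX and 10090 in mock. Their part in the lower values was not tested.

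NADPH oxidases, which produce superoxide outside the cell, differed little where reads were many. RBOHF had 3096 reads in DEX against 3944 in mock, giving a log2 ratio of -0.13 ± 0.03. It was the only one of 5 called, or 20% lower and 0% higher, beside 20.8% and 36.4% of all genes. RBOHA and RBOHB, with 32 and 11 reads over both pools, were not called at 0.55 ± 0.51 and 0.42 ± 0.87. RHD2, needed for root hair growth, was at 0.05 ± 0.06. RBOHD, the main oxidase of immune bursts, is not a member and was at 0.26 ± 0.02.

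Signalling and regulatory members had small ratios. Of 17, 10 were called higher (58.8%) and 2 lower (11.8%), at a median of 0.08, or 6 and 4 with ratios centred on the median gene. Their median was 6044 reads per gene, and 43.9% of all genes with 5000 to 20000 reads were called higher and 26.0% lower. None reached 1.5-fold. EDS1, the hub of TIR receptor signalling, had 3171 reads in DEX against 2873 in mock, at 0.36 ± 0.04. EDS5, the chloroplast exporter in salicylic acid synthesis, was at 0.27 ± 0.07. Both were picked for their known role.

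SYP121, a syntaxin needed to stop fungal penetration, had 5022 reads in DEX against 4458 in mock, at 0.39 ± 0.03. HSP81-2, a chaperone of the HSP90 family that stabilises intracellular receptors, was at 0.24 ± 0.01. SSI2, a fatty acid desaturase whose loss activates defence, was at -0.15 ± 0.01, and DND1, an ion channel whose loss does the same, at -0.12 ± 0.02. CPR5, whose loss also activates defence, was called higher at 0.16 ± 0.04, so genes of this kind lay on both sides, and CPR5 was looked up after its value was seen.

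The remaining 12 proteins held 5 genes called higher (41.7%) and 1 called lower (8.33%). After centring on the median gene, the balance turned to 2 higher and 4 lower. The class had a median of 9917 reads per gene. Among all genes in the bin of 5000 to 20000 reads, the shares were 43.9% higher and 26% lower. The uncentred share called higher was thus near the background, and the share called lower was below it. ECS1, a cell wall protein, had 595 reads in DEX against 1079 in mock, giving a log2 ratio of -0.64 ± 0.07. MBP1, a myrosinase-binding protein, was at 0.30 ± 0.01 on 22121 and 20913 reads. VSP1, a vegetative storage protein induced by jasmonate, had the most reads of all members, with 226812 and 259091, and was called higher at only 0.03 ± 0.0041. Its sign turned to -0.02 with ratios centred on the median gene.

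**Figure D4:**
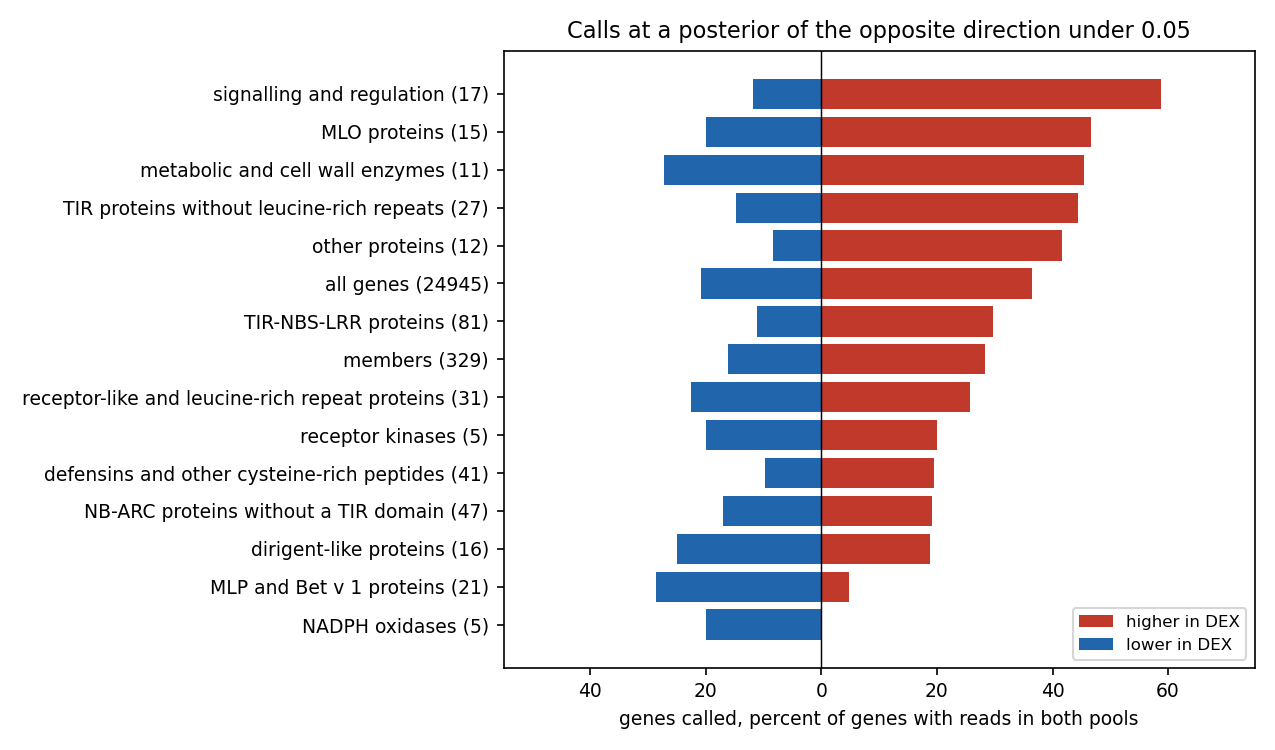
Share of genes called higher (right) and lower (left) in DEX, in percent of genes with reads in both pools (horizontal axis), for each protein class, all members and all genes (vertical axis, number of genes in brackets). Signalling, MLO, enzyme, other and TIR proteins without leucine-rich repeats lie above the 36.4% of all genes called higher, while MLP and Bet v 1 proteins have the smallest share apart from the NADPH oxidases.

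**Figure D5:**
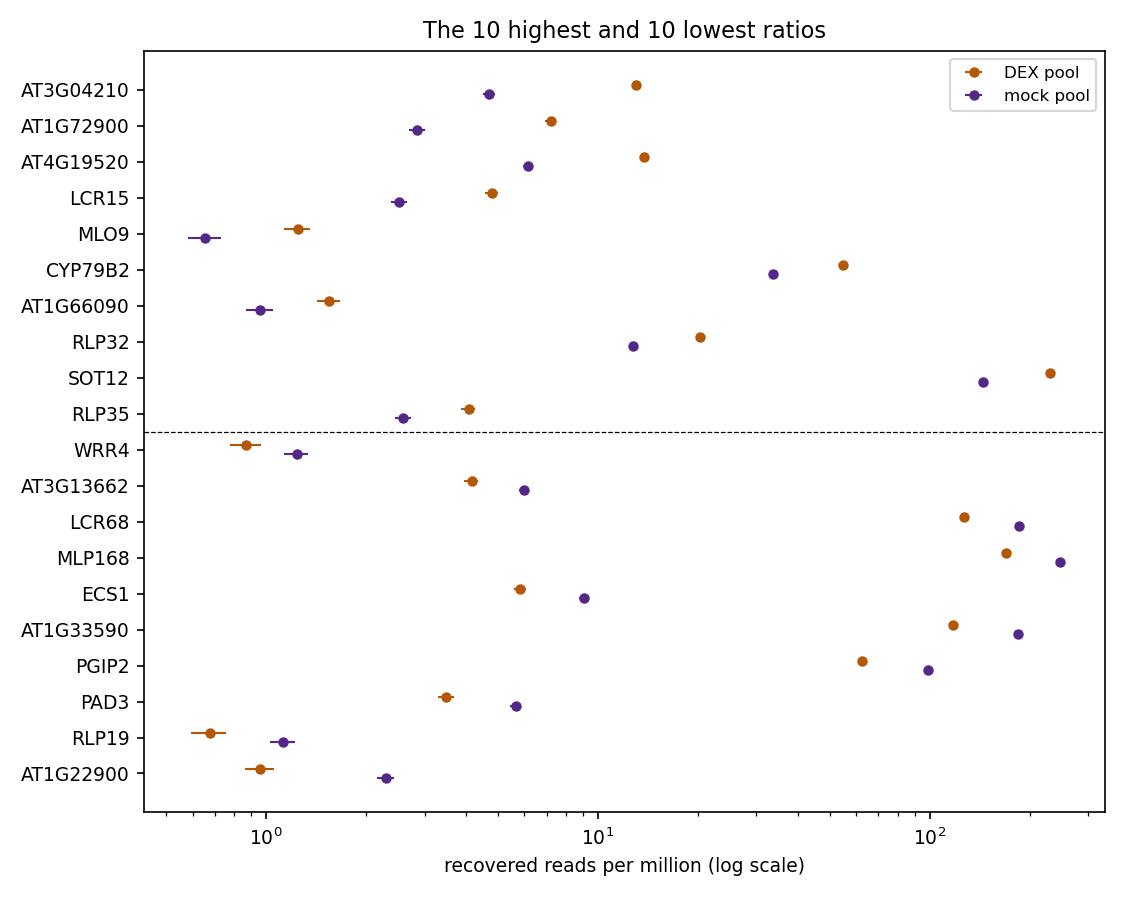
Recovered reads per 1000000 (horizontal axis, log scale) in the DEX and the mock pool for the 10 members with the highest and the 10 with the lowest ratio among called members with at least 200 reads, 1 line each, with error bars of 1 counting standard error. AT3G04210 and AT1G72900 have the widest gap above the dashed line and AT1G22900 the widest below it.

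Other genes of the pathways, in lists that hold some of the members, were set beside them. Of 10 genes of intracellular immunity, 6 of them members, 4 were called higher and 0 lower, at a median of 0.11, or 3 and 2 with ratios centred on the median gene. PAD4 and SAG101, the partners of EDS1, were at 0.13 ± 0.07 and -0.03 ± 0.06. Of 9 measured genes of salicylic acid, 5 were higher and 1 lower, at a median of 0.27, or 4 and 1 when centred. The median gene of these lists had 3273 and 1695 reads. Of all genes with 1000 to 5000 reads, 41.7% were called higher and 20.8% lower. SARD1, a transcription factor that activates salicylic acid synthesis, had 317 reads in DEX against 164 in mock, at 1.17 ± 0.14, and the synthesis enzyme ICS1 was at 0.36 ± 0.07.

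Of 13 genes of cell-surface immunity, 7 were called higher (53.8%) and 4 lower (30.8%), at a median of 0.09, with the same counts when centred. Their median was 7446 reads, and 43.9% of all genes with 5000 to 20000 reads were called higher and 26.0% lower. SOBIR1, the kinase partner of receptor-like proteins such as RLP32, had 3833 reads in DEX against 2731 in mock, giving a log2 ratio of 0.71 ± 0.04, and the kinase gene MPK3 was at 0.52 ± 0.03. FLS2 and EFR, the receptors of bacterial flagellin and elongation factor Tu, were at -0.35 ± 0.03 and -0.24 ± 0.05. Both RLP32 and its partner kinase were higher in DEX, while these 2 receptor kinases were lower. Others went another way: CERK1 was higher at 0.13 ± 0.03 and BAK1 was not called at 0.02 ± 0.03. The receptor-like proteins RLP19 and RLP11, described above, were lower. Of 7 measured defence output genes, 3 of them members, 2 were higher and 4 lower, at a median of -0.43, with the same counts when centred. Their median was 311 reads, and 36.0% of all genes with 200 to 1000 reads were called higher and 16.6% lower. FRK1 was at -1.26 ± 0.23, PR2 at -0.43 ± 0.23 and PR5 at 0.23 ± 0.04. PAD3, CYP71A13 and CYP79B2 are given above. PR1, the usual marker of salicylic acid responses and a member, had 42 and 50 reads and was not called at -0.03 ± 0.30.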

How the data were processed

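Per the labels' protocols, poly-A RNA was sequenced by Illumina. The submitters' processing notes name TopHat 1.2.0, HTSeq 0.4.5p6 and TAIR10 but give no roles. The authors deposited 1 table in the output format of LOX, which estimates expression levels from read counts. Per the file headers it holds, for each gene and treatment, a level relative to the lower treatment (a ratio), posterior probabilities that either treatment is higher, half-widths and a log-likelihood score. All values are pooled over the 4 libraries of a treatment.

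The log2 ratio was computed from the deposited levels. Reads per pool were recovered by taking the score as N ln(N/T) - N summed over both pools, where N is the gene's and T the pool's read number. The formula is not given in the sources used here, and all read numbers and counting errors depend on it. With it, 908 of 908 genes with reads in 1 pool had whole reads within 0.05, and 99.98% of 8294 genes under 1000 reads had whole totals within 0.1. The recovery and the calls were tested on simulated data. The simulated scores were made with the same formula and the simulated posteriors from counting error alone. That test therefore cannot check the formula itself.

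The planned count test had no input, because no value per library was in the file, so the posterior in the authors' deposited table was used. Whether replicates of separate plants differ more than counting error was not measured. The deposited table holds no gene descriptions, so classes came from RefSeq product names and protein family notes of TAIR10.1, matched by locus for 390 of 390 genes. Near-identical copies, with 95% identity over 100 bases or more, were sought with blastn 2.17.0, and 27 members had one, while 69 overlapped a gene on the other strand. Promoter sequences are from RefSeq, TAIR10.1, and 1 window among the lowest ratios is not reported here.

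The text names the 10 highest and 10 lowest ratios among called members with at least 200 reads, and up to 2 members per class and direction whose posterior of the opposite direction was smallest. Genes named outside this rule were picked for their known role or cluster after their values were seen. The members and lists were chosen with earlier results of these data known. Alternatives were a posterior limit of 0.01, a 1.5-fold limit, a minimum of 200 reads, scaling by the median ratio, the removal of copies or overlapping genes, and a wider choice of terms. Software was NumPy 2.4.6, SciPy 1.17.1, pandas 2.3.3 and Matplotlib 3.10.9, under Python 3.11.15.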

Additional observations from a re-analysis of the deposited data

How the results depend on the processing

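No paired analysis was possible because each treatment has a single pooled value per gene. The planned count models, the removal of single replicates and the separate use of technical replicates were therefore not run. With a 1.5-fold limit the members called fell from 93 to 26 higher and from 53 to 10 lower, by construction. With any term that contains defense response, 584 genes gave 190 higher and 141 lower calls, at a median log2 ratio of 0.04. This wider set contains the 329 members, so its counts could not be smaller. Of all genes, 36.4% were called higher and 20.8% lower. With ratios centred on the median gene, class medians moved to 0.01 for metabolic and cell wall enzymes, -0.02 for other proteins and 0.03 for signalling and regulation, and MLP28 and VSP1 changed sign to -0.01 and -0.02. At a posterior limit of 0.01, 73 members were higher (22.2%) and 40 lower (12.2%), beside 29.1% and 17.1% of all genes. Of 104 values of the 52 named members under a posterior limit of 0.01 or the median scaling, 99 kept direction and call. WAKL10 lost its call under both and SNC4 at 0.01, MLP28 changed sign and lost its call, and VSP1 changed sign and was called lower when centred. At low depth, 25 members had fewer than 10 reads, and differences in them were not detectable.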
